A study of Mus musculus with 12 samples.

Results

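Flywch2, Bcar3, Rasd2, Stac2, Gls2 and Gbp3 are 6 genes with more transcript in primary cells of the fetal mouse cerebral cortex given triiodothyronine (T3), the active thyroid hormone, than in cells without it. They were chosen as a group of less studied genes with a clear T3 difference. For each, the mean level over the 6 cultures with T3 was at least 1.8 times the mean over the 6 without T3. The deposited table lists 14801 genes. Of these, 82 reach that ratio, 47 of them among the 13663 genes that passed a filter on low reads, which is 0.344% of the genes tested. All 6 genes passed the filter. Since the T3 difference chose them, their change with T3 is given as a description with no test.

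Cells were cultured with 10 nM T3 for 24 h, or in parallel without T3. In both groups they came from wild type fetuses of gestational day 17.5, had grown for 9 days and had been kept without the B27 supplement for 24 h before the hormone was added. Each of 6 fetuses gave 1 culture of each kind, so the cultures form 6 pairs, called mouse 1 to mouse 6. The cortex was disaggregated as a whole, and the labels describe no sorting of cell types. The sources do not say which fetuses shared a litter. Levels are CPM, the reads of a gene relative to the size of its library, after TMM scaling, which corrects for differences in composition.

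Thyroid hormone acts mainly through receptors in the nucleus that stay on DNA and switch from repressing to activating nearby genes when T3 binds. The classical binding element is a pair of AGGTCA half-sites, often a direct repeat. In the developing cortex the hormone is known for its part in neuronal migration, neurite and synapse growth and the maturation of glia. The 6 genes do not belong to 1 pathway. Flywch2 encodes a small protein with a FLYWCH zinc finger and has no well defined role. Bcar3 encodes an SH2-domain adaptor that binds the scaffold Bcar1 and was found in human breast cancer cells resistant to anti-oestrogens. Rasd2, also called Rhes, encodes a Ras-like GTPase known for its high level in the striatum, where rat studies found it to depend on thyroid hormone. Stac2 encodes an SH3 and cysteine-rich protein of a family that binds L-type calcium channels. Gls2 encodes a mitochondrial glutaminase, which turns glutamine into glutamate, and is a known target of the tumour suppressor p53. Gbp3 encodes a guanylate-binding protein, a large GTPase of a family known for induction by interferons.

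The genes lie apart on 5 chromosomes, with 2 of them on chromosome 3. On GRCm38, Flywch2 (ENSMUSG00000023911) spans chr17:23776916-23786081 on the minus strand, Rasd2 (ENSMUSG00000034472) chr8:75213944-75224113 on the plus strand, and Stac2 (ENSMUSG00000017400) chr11:98036623-98053462 on the minus strand. Gls2 (ENSMUSG00000044005) spans chr10:128194457-128210004, Bcar3 (ENSMUSG00000028121) chr3:122294136-122530191 and Gbp3 (ENSMUSG00000028268) chr3:142560026-142573209, all on the plus strand. Promoter windows of RefSeq on GRCm38.p6, from 250 bases before to 50 bases after a start, were available for 4 of the genes, 6 windows in all. They were searched on both strands for the half-site AGGTCA, 3 near variants of it (GGGTCA, the form AGGTGA and the form GGGTGA), the direct repeat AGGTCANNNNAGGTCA, the interferon-type motif GAAANNGAAA and the STAT-type motif TTCNNNGAA. The 3 windows below are shown because they hold matches closest to the start; capitals mark the matches, which on these lines can read as the opposite strand (TGACCC for GGGTCA, and 2 overlapping reversed copies of GAAANNGAAA in Gbp3).
Flywch2, chr17:23786032-23786331, minus strand: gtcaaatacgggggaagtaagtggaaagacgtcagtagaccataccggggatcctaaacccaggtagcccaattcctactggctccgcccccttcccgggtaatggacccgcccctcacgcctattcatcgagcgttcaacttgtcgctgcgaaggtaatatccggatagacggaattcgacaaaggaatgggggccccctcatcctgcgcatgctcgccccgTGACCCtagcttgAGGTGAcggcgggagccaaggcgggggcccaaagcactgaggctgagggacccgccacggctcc
Rasd2, chr8:75213694-75213993, plus strand: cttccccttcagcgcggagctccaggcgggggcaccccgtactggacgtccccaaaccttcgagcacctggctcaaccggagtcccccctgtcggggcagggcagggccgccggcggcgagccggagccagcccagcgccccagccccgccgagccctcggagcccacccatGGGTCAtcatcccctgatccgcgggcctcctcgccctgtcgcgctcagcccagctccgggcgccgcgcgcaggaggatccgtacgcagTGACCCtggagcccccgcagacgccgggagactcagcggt
Gbp3, chr3:142559794-142560093, plus strand: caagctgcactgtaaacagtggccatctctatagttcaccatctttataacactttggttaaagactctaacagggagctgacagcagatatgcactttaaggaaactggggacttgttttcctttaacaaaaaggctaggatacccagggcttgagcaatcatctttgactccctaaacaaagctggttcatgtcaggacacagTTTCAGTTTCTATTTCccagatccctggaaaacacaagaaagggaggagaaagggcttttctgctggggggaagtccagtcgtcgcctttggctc

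Counted with the start as 0, Flywch2 had GGGTCA on the opposite strand at -27 and AGGTGA at -14, and Rasd2 had GGGTCA at -78 and, on the opposite strand, at 11. One of the Bcar3 windows (chr3:122483319-122483618) held GGGTGA at -130 on the opposite strand and at -98, and the other (chr3:122419507-122419806) held none of the motifs. Both Bcar3 windows are at starts inside the gene. No window covered its outermost start at chr3:122294136, so that region was not searched. The first Gbp3 window had the GAAANNGAAA matches at -45 and -39 and none of the half-sites, and its second window (chr3:142560106-142560405) held none of the motifs. AGGTCA itself and the direct repeat were in none of the 6 windows. Over all 32851 RefSeq windows of the same length, 16.3% held AGGTCA, 13.7% GGGTCA, 17.4% AGGTGA and 16.2% GGGTGA. At least 1 of these 4 was in 48.5% of windows, so such a match is common. GAAANNGAAA was in 3.44%, TTCNNNGAA in 8.30% and the direct repeat in 0.0152%. These are matches of letters and were not tested for binding.

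The libraries held 7460586 to 10837895 reads with T3 and 5272092 to 8136928 reads without T3, and in 6 of 6 mice more reads came from the T3 culture, by 1.03 to 1.67 times. One read was worth 0.0911 to 0.186 CPM. A count of 0 allows a level of up to 3 reads, or 0.273 to 0.557 CPM, for counting error only. Of the pan-neuronal markers, 10 of 10 were listed, with summed levels of 6886 to 8323 CPM with T3 and 7286 to 9352 CPM without T3, and 13 of 14 astrocyte markers were listed, with sums of 1599 to 4058 CPM with T3 and 1021 to 3408 CPM without T3. One library, mouse 4 without T3, differed from the rest: its heart muscle markers summed to 1213 CPM, against 3.07 to 5.81 CPM with T3 and 3.50 to 6.88 CPM in the other libraries without T3. Ratios of means, and other values that turn on mouse 4, are therefore also given without that mouse.

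Set per kilobase of exon, so that genes can be compared with each other, Flywch2 was the highest of the 6 with T3, at 13.4 ± 2.49 CPM per kilobase (SD, n = 6, as for all means here). Stac2 followed at 7.41 ± 1.55, Rasd2 at 5.05 ± 0.700, Gbp3 at 3.04 ± 1.60, Bcar3 at 2.31 ± 1.39 and Gls2 at 2.15 ± 0.285 CPM per kilobase with T3. Without T3 the order of the level was the same, with Flywch2 at 4.27 ± 0.998, Stac2 at 3.46 ± 0.586, Rasd2 at 2.03 ± 0.631, Gbp3 at 1.51 ± 0.689, Bcar3 at 0.913 ± 0.642 and Gls2 at 0.852 ± 0.172 CPM per kilobase. With T3, Flywch2 stood clear of Stac2, its lowest culture at 9.91 against the highest Stac2 culture at 9.20 CPM per kilobase; every other pair of neighbours in the order overlapped, as did all neighbours without T3. Flywch2 lay at percentile 69.3 of the tested genes by level per kilobase with T3 and 37.6 without T3. Gls2, at the low end, lay at percentile 22.4 with T3 and 8.88 without T3.

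**Figure D1:**
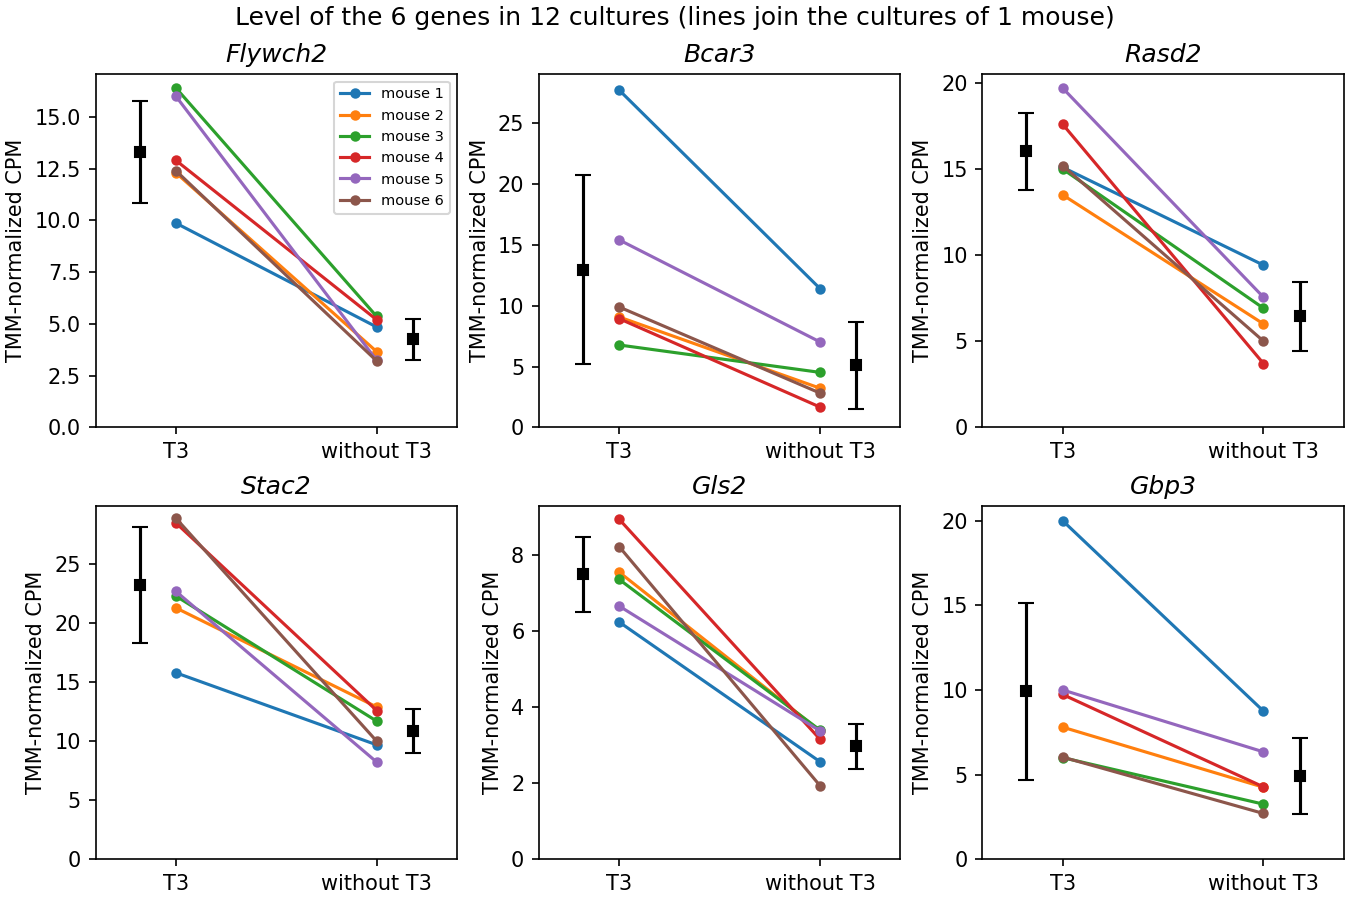
Level of each gene in TMM-normalized CPM (vertical axis, linear from 0) in the 6 cultures with T3 and the 6 without T3; each coloured line joins the cultures of 1 mouse, and squares with bars are mean ± SD. Every line is higher at the T3 end, and the lines of Bcar3 and Gbp3 are spread widest, with mouse 1 on top (27.7 and 20.0 CPM with T3).

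Flywch2, the zinc finger gene, had the largest ratio of the group. Its level was 9.87 CPM in the lowest, 12.6 at the median and 16.4 CPM in the highest culture with T3, against 3.21, 4.25 and 5.36 CPM without T3. The lowest culture with T3, that of mouse 1, was above the highest culture without T3, that of mouse 3, so the groups did not overlap. The means were 13.3 ± 2.48 CPM with T3 and 4.25 ± 0.994 CPM without T3, a ratio of 3.13. Within mice 1 to 6 the ratio was 2.04, 3.35, 3.05, 2.49, 4.95 and 3.85, with a median of 3.20. Mouse 5 had the largest ratio, with a high level with T3 (16.0 CPM, 176 reads) and a low one without T3 (3.24 CPM, 24 reads), and mouse 1 had the smallest. On the log2(CPM + 0.5) scale, which understates the change of low genes, the difference was 1.55 with an SD of 0.42 between mice.

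Rasd2, the striatal GTPase, had even levels with T3, and a change that differed between mice. It had 13.5, 15.1 and 19.7 CPM in the lowest, median and highest culture with T3, and 3.71, 6.46 and 9.42 CPM without T3. The groups did not overlap. Means were 16.0 ± 2.22 CPM with T3 and 6.44 ± 2.00 CPM without T3, a ratio of 2.49, with a log2 difference of 1.29 (SD between mice 0.49, or 0.32 without mouse 4). The ratios of mice 1 to 6 were 1.60, 2.26, 2.17, 4.75, 2.60 and 3.04. With T3, 4 of the 6 cultures lay between 15.0 and 17.6 CPM, while without T3 mouse 4, the library with heart muscle markers, was lowest (20 reads) and mouse 1 highest (70 reads).

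Stac2, the calcium channel adaptor, had the highest level in CPM of the 6 genes. Its cultures with T3 ran from 15.8 CPM over a median of 22.5 to 28.9 CPM, and those without T3 from 8.23 over 10.9 to 12.9 CPM. Again no culture without T3 reached the lowest with T3. Its means were 23.3 ± 4.88 CPM with T3 and 10.9 ± 1.84 CPM without T3, a ratio of 2.14 and a log2 difference of 1.05 (SD between mice 0.35). The ratios were 1.63 in mouse 1, 1.66 in mouse 2, 1.90 in mouse 3, 2.26 in mouse 4, 2.76 in mouse 5 and 2.88 in mouse 6. Mouse 1, the lowest of the cultures with T3 for Flywch2, Stac2 and Gls2, was the highest of them for Bcar3 and Gbp3.

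Gls2, the glutaminase, was the lowest of the 6 genes per kilobase and varied little beyond counting error. Levels with T3 were 6.23, 7.45 and 8.93 CPM (lowest, median, highest), against 1.93, 3.26 and 3.39 CPM without T3, and the groups did not overlap. The means of 7.49 ± 0.989 CPM with T3 and 2.96 ± 0.598 CPM without T3 gave a ratio of 2.53 and a log2 difference of 1.22 (SD between mice 0.35). The ratio was 1.97 to 2.83 in mice 1 to 5 and 4.26 in mouse 6, whose culture without T3 was the lowest, at 15 reads. All 6 cultures without T3 had 15 to 25 reads.

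Bcar3, the adaptor, differed most between mice. With T3 it had 6.77 CPM in the lowest, 9.48 at the median and 27.7 CPM in the highest culture, and without T3 1.67, 3.87 and 11.4 CPM. The groups overlapped: 2 cultures without T3, those of mice 1 and 5, were above the lowest culture with T3, that of mouse 3. Within each mouse the T3 culture was nonetheless the higher, with ratios of 2.42, 2.82, 1.50, 5.35, 2.19 and 3.50 in mice 1 to 6. The largest ratio, in mouse 4, set 78 reads with T3 against 9 reads without T3 and came from the library with heart muscle markers. The means were 13.0 ± 7.76 CPM with T3 and 5.12 ± 3.60 CPM without T3, a ratio of 2.53, and the log2 difference was 1.33 (SD between mice 0.53, or 0.41 without mouse 4).

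Gbp3, the guanylate-binding protein gene, had the smallest ratio of means and the most even change. Its levels were 6.00, 8.76 and 20.0 CPM with T3 and 2.70, 4.26 and 8.75 CPM without T3 (lowest, median, highest). As for Bcar3 the groups overlapped, because mouse 1 and mouse 5 without T3 (8.75 and 6.34 CPM) were above the lowest culture with T3. The ratio was nonetheless 2.29, 1.84, 1.85, 2.28, 1.58 and 2.24 in mice 1 to 6, and the SD of the log2 difference of 0.92 was 0.21 between mice. Means were 9.93 ± 5.23 CPM with T3 and 4.93 ± 2.25 CPM without T3, a ratio of 2.02.

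**Figure D2:**
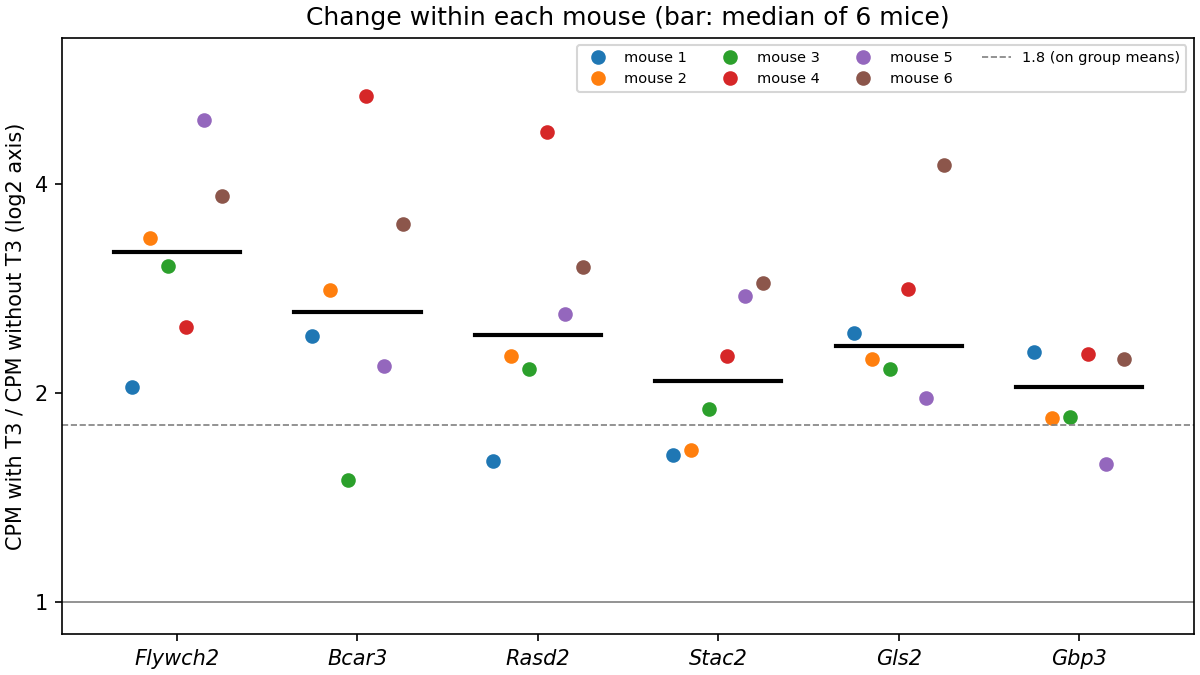
Ratio of CPM with T3 to CPM without T3 within each mouse (vertical axis, log2 scale) for the 6 genes; points are mice, black bars the median of 6 mice, the dashed line the ratio of 1.8 that the rule set on group means. All 36 points lie above 1, between 1.50 (Bcar3, mouse 3) and 5.35 (Bcar3, mouse 4), and the Gbp3 points lie closest together.

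All 36 ratios of a T3 culture to its partner were above 1. Over all genes tested, 5.79% were higher with T3 in 6 of 6 mice. The groups did not overlap for 4 of the 6 genes, where 1.05% of the genes tested had all 6 cultures with T3 above all 6 without. The rule used this contrast, so neither count says more than the choice does. Without mouse 4, the ratio of means was 3.29 for Flywch2, 2.37 for Bcar3, 2.25 for Rasd2, 2.11 for Stac2, 2.46 for Gls2 and 1.97 for Gbp3. Just inside a ratio of 1.8 of the means lay Dbp at 1.805 (14.2 CPM with T3, 7.85 without T3) and Reep4 at 1.807 (2.45 with T3, 1.35 without T3), and just outside it Spr-ps1 at 1.783 (1.67 with T3, 0.936 without T3). The order of the mice differed from gene to gene: the largest ratio was in mouse 5 for Flywch2, mouse 4 for Bcar3 and Rasd2, mouse 6 for Stac2 and Gls2 and mouse 1 for Gbp3.

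The spread between cultures was also set against what counting reads alone would give. For Gls2 the SD was 1.09 times the counting SD with T3 and 0.908 times without T3. For Bcar3 it was 6.41 times with T3 and 4.26 times without T3, and for Gbp3 4.91 times with T3 and 2.67 times without T3. For comparison, 2751 tested genes were taken whose mean without T3 lay within the range of the 6 genes, 2.96 to 10.9 CPM. Their median was 1.41 with T3 and 1.37 without T3. Levels with T3 were not matched, and Flywch2, Bcar3, Rasd2 and Stac2 had means above that range with T3. Of the 2751 genes, 0.327% were at or above Bcar3 with T3 and 3.02% without T3. At or above Gbp3 were 1.38% with T3 and 10.1% without T3. Flywch2 (2.07 with T3, 1.26 without T3), Stac2 (3.07 with T3, 1.46 without T3) and Rasd2 (1.68 with T3, 2.10 without T3) lay between. As coefficients of variation, the spread was 59.9% with T3 and 70.3% without T3 for Bcar3, 52.7% with T3 and 45.7% without T3 for Gbp3, and 13.2% with T3 and 20.2% without T3 for Gls2.

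**Figure D3:**
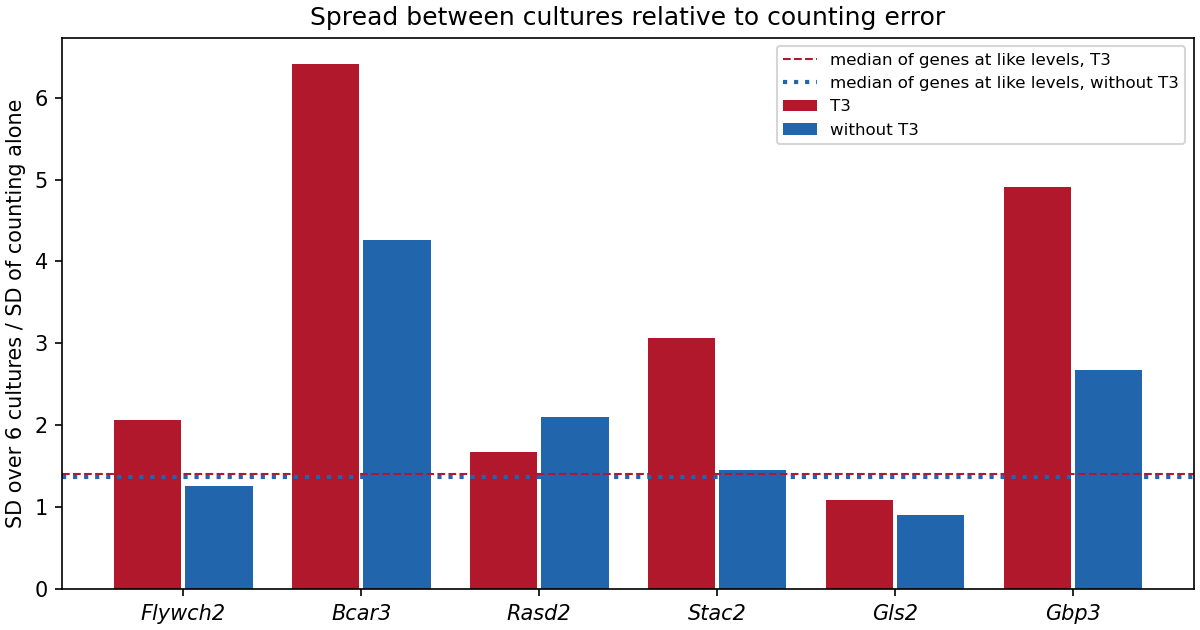
SD over 6 cultures divided by the SD that counting reads alone would give (vertical axis, from 0), with T3 (red) and without T3 (blue). Dashed and dotted lines are the medians over 2751 genes matched on their level without T3 only, 1.41 with T3 and 1.37 without T3. Bcar3 (6.41 with T3, 4.26 without T3) and Gbp3 (4.91 with T3, 2.67 without T3) rise well above the lines, and Gls2 lies below both.

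Whether a mouse that was high without T3 was also high with T3 is a question the rule did not use, and it was tested for the 6 genes by correlating log2 levels of partner cultures over the 6 mice. For Gbp3 Pearson's r was 0.94 (two-sided exact permutation p = 0.00556, adjusted over the 6 genes p = 0.0333) and Spearman's rho was 0.94 (exact permutation p = 0.0167, adjusted p = 0.100). Without mice 1 and 6, the farthest from the median without T3, r was 0.83 over 4 mice, and without mouse 4 it was 0.95. With a pseudocount of 0.1 in place of 0.5, r was again 0.94 but its adjusted p was 0.05, which ends the call. Of all genes tested, 2.40% had an r as high or higher, and the median r was 0.35. For Bcar3 r was 0.80 (exact permutation p = 0.0750, adjusted p = 0.225) and rho 0.60 (exact permutation p = 0.242, adjusted p = 0.725), with r at 0.55 without mice 1 and 4. The other genes did not pass the threshold, with r at -0.07 for Flywch2, -0.11 for Rasd2, 0.23 for Stac2 and -0.13 for Gls2, each with an adjusted exact permutation p of 0.947. Their r turned on single mice: on leaving out 1 mouse it ran from -0.54 (without mouse 3) to 0.27 (without mouse 5) for Flywch2, and from -0.58 (without mouse 5) to 0.28 (without mouse 4) for Rasd2. The range was 0.00 (without mouse 1 or 4) to 0.40 (without mouse 6) for Stac2 and -0.42 (without mouse 1) to 0.44 (without mouse 6) for Gls2, and for Bcar3 0.48 (without mouse 1) to 0.95 (without mouse 3). Their rho was 0.31, -0.09, -0.03 and -0.26 (exact permutation p = 0.564, 0.919, 1.00 and 0.658, adjusted p = 0.988, 1.00, 1.00 and 0.988). Leaving out the 2 farthest mice gave an r of 0.34 for Flywch2, 0.60 for Rasd2, 0.50 for Stac2 and -0.89 for Gls2. The Gbp3 relation was the one past the threshold at a pseudocount of 0.5, by Pearson's r and not by rho. With 5 mice, a gene that alone reaches the smallest possible permutation p gets an adjusted p of 0.100.

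Astrocyte markers also differed between mice. Their summed level in mice 1 to 6 was 4058, 2152, 1927, 2069, 3117 and 1599 CPM with T3, and 3408, 1888, 1759, 1644, 2725 and 1021 CPM without T3. Mice 1 and 5 had the highest sums in both groups, and they also had the highest Bcar3 and Gbp3 levels in both groups. Rasd2 was highest in these mice without T3 (9.42 and 7.56 CPM), and with T3 in mice 5 and 4 (19.7 and 17.6 CPM). For Flywch2, Stac2 and Gls2, mice 1 and 5 were not the highest pair in either group. The sums were higher with T3 in each mouse, by 1.19, 1.14, 1.10, 1.26, 1.14 and 1.57 times in mice 1 to 6, and 7 of the 13 tested astrocyte markers rose with T3 and 0 fell, with a median log2 difference of 0.30. Markers of oligodendrocytes and their precursors were also highest in mice 1 and 5, with sums of 589.8 CPM in mouse 1 and 599 CPM in mouse 5 with T3 (473 to 574 CPM in the others) and 536 and 525 CPM in those mice without T3 (365 to 518 CPM in the others). These sums were higher with T3 in 6 of 6 mice, by 1.10 to 1.30 times. Of 10 such markers tested, 3 rose and 0 fell (Gpr17, Olig1 and Olig2), with a median log2 difference of 0.20 and 8 above 0. The myelin genes Mbp (-0.11) and Mog (-0.35) lay below 0 and did not pass the test. The ratio of each of the 6 genes was above the astrocyte ratio of the same mouse in 6 of 6 mice, which the choice of the genes by their ratio largely fixed. Divided by it, the median ratio was 2.62 for Flywch2, 2.13 for Bcar3, 1.98 for Rasd2, 1.76 for Stac2, 2.01 for Gls2 and 1.65 for Gbp3. In bulk samples, fewer cells of a type and less RNA per cell cannot be told apart, and the part of cell makeup in the levels of the 6 genes was not tested beyond these values. Mouse 1 had the lowest pan-neuronal sum in both groups, 6886 CPM with T3 and 7286 CPM without T3. The pan-neuronal sums moved less, with ratios of 0.890 to 1.06. Single pan-neuronal markers did differ: 3 of 10 tested rose and 0 fell (Rbfox3, Nefl and Nefm), with a median log2 difference of -0.04 and 4 above 0.

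**Figure D4:**
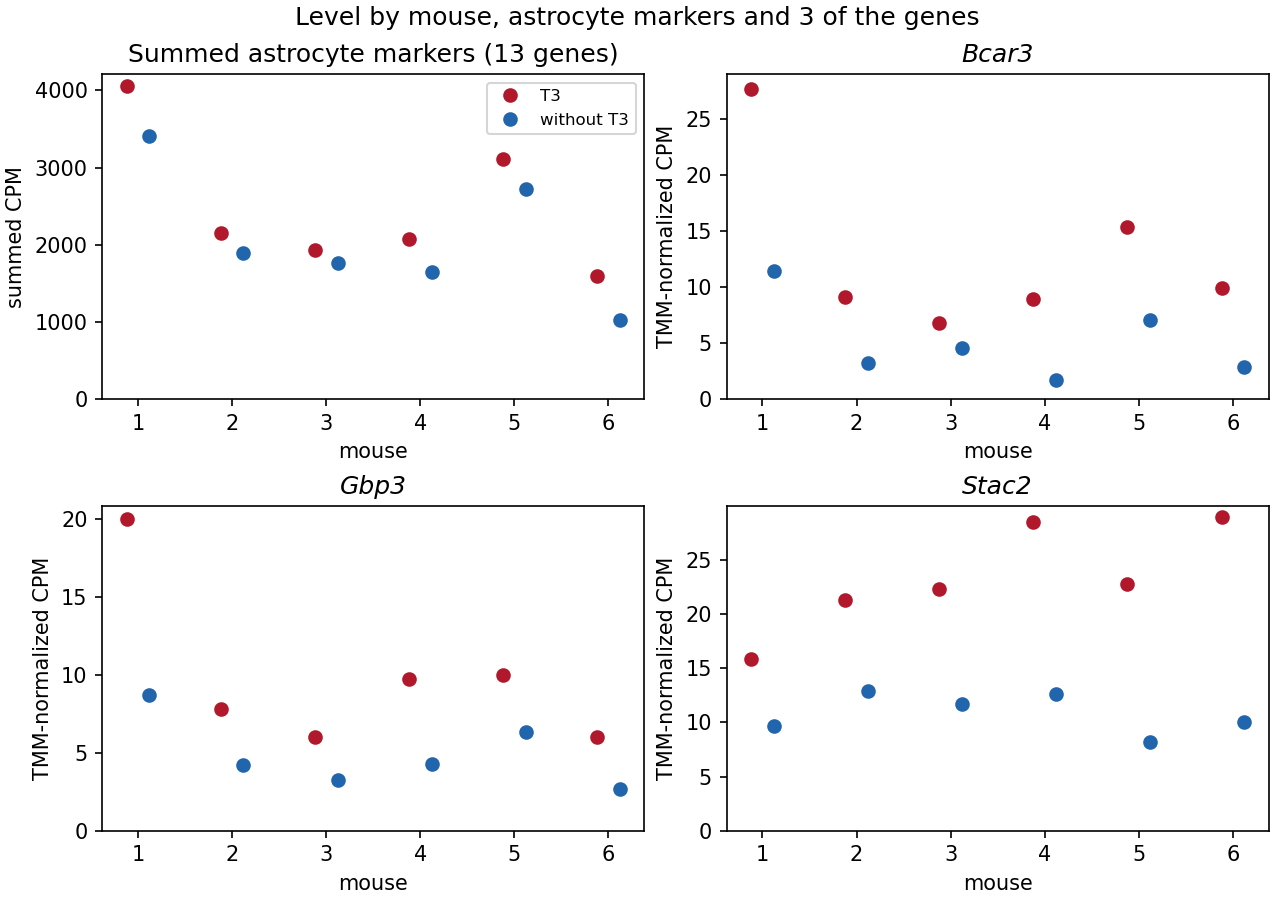
Summed CPM of 13 astrocyte markers and CPM of Bcar3, Gbp3 and Stac2 (vertical axes, from 0) by mouse, with T3 (red, left) and without T3 (blue, right). Mice 1 and 5 are highest for the astrocyte sum, Bcar3 and Gbp3, while for Stac2 mouse 1 is the lowest with T3 (15.8 CPM).

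Relatives and partners of the genes were read from the fit across all genes, in which 754 genes (5.52%) passed the threshold, 461 (3.37%) higher and 293 (2.14%) lower with T3, the median log2 difference was 0.00 and 51.1% of genes lay above 0. Without mouse 3 the fit called 304 higher and 154 lower, and without mouse 5 191 lower. Few genes around Flywch2 and Bcar3 passed the test. Flywch1, the zinc finger relative that lies 5.31 kb from Flywch2 and, in human cells, binds beta-catenin, had 53.5 to 66.2 CPM with T3 and 44.3 to 58.6 CPM without T3. Its log2 difference was 0.19 (SE 0.072, adjusted p = 0.164, higher in 5 of 6 mice), with a 95% interval of 0.04 to 0.34. Of the 3 genes listed around the FLYWCH family (Flywch1, the beta-catenin gene Ctnnb1 and Tcf7l2), limma called 0, with 1 at an unadjusted p under 0.05. The tools edgeR, DESeq2 and limma-voom called 0 as well. Sh2d3c, the adaptor most like Bcar3, averaged 24.8 ± 5.49 CPM with T3 and 24.9 ± 4.25 CPM without T3, a log2 difference of -0.02 with a 95% interval of -0.31 to 0.27 (adjusted p = 0.972). Among 19 tested adaptors, Cas scaffolds, kinases and effectors around Bcar3, 1 rose and 0 fell, with a median of -0.04. The riser was Rapgef1, an exchange factor for Rap GTPases, at 225 ± 15.4 CPM with T3 and 198 ± 15.2 CPM without T3 (log2 difference 0.19, adjusted p = 0.0417, higher in 6 of 6 mice). Its call was lost on leaving out mouse 2, 3, 4 or 5 and without the block by mouse, and its adjusted p ran from 0.0168 to 0.224 over the alternatives. Bcar1, the scaffold that Bcar3 binds, had 55.5 ± 6.92 CPM with T3 and 50.1 ± 5.29 CPM without T3 (log2 difference 0.14, adjusted p = 0.331).

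Rasd1, the closest relative of Rasd2, was hardly detected, with 3 to 11 reads in the cultures with T3 and 1 to 9 reads in those without T3, and it did not pass the filter on low reads. Of 19 tested genes that are close to Rasd2 or known for striatal neurons, 0 rose and 1 fell, with a median log2 difference of -0.11, and at an unadjusted p under 0.05 3 were higher and 4 lower. The gene that fell was Drd2, the dopamine D2 receptor, at 2.38 ± 0.610 CPM with T3 and 3.99 ± 1.40 CPM without T3 (log2 difference -0.59, adjusted p = 0.0318, lower in 6 of 6 mice). It rests on 13 to 36 reads per library, its call was lost on leaving out mouse 2, 3, 4 or 5, with DESeq2 and without the block by mouse, and its adjusted p ran from 0.0175 to 0.335 over the alternatives.

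Calcium channel genes around Stac2 moved in both directions. Of 16 tested, 2 rose and 2 fell, with a median log2 difference of 0.01. Stac, its nearest relative among the genes measured, was lower with T3, opposite to Stac2, at 3.72 ± 0.770 CPM with T3 and 5.58 ± 1.57 CPM without T3. Its log2 difference was -0.51 (95% interval -0.80 to -0.21, adjusted p = 0.0379, lower in 6 of 6 mice), but its call was lost on leaving out mouse 1, 2, 3, 4 or 6, with DESeq2 and without the block by mouse, and its adjusted p ran from 0.0235 to 0.258 over the alternatives. Cacna1a, the pore of P/Q-type channels, rose, at 118 ± 10.2 CPM with T3 and 90.4 ± 7.01 CPM without T3 (log2 difference 0.38, adjusted p = 0.000106), and kept its call under each of the alternatives run, with adjusted p from 6.23e-07 to 0.00736. Cacna2d2, an auxiliary subunit, rose too (25.5 ± 2.89 CPM with T3, 19.6 ± 1.91 CPM without T3, log2 difference 0.37, adjusted p = 0.00954), a call lost without mouse 3 or 6, with adjusted p up to 0.0546. Cacna1e, the pore of R-type channels, fell (131 ± 15.8 CPM with T3, 155 ± 13.5 CPM without T3, log2 difference -0.25, adjusted p = 0.00759), a call lost without mouse 3 and without the block by mouse, with adjusted p up to 0.191. The pores of the main L-type channels did not pass the test, with log2 differences of 0.02 for Cacna1c (adjusted p = 0.940) and 0.12 for Cacna1d (adjusted p = 0.288). Stac3, a family member of skeletal muscle, was not among the genes listed.

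Around Gls2, a few genes passed the test. Of 21 tested genes of glutamine and glutamate metabolism and transport, 2 rose and 0 fell, with a median log2 difference of 0.06 and 18 above 0. Slc38a3, a glutamine transporter, had 70.6, 78.7 and 152 CPM with T3 and 32.2, 62.0 and 105 CPM without T3 (lowest, median, highest), with mouse 1 highest in both groups. Its log2 difference was 0.59 (SE 0.10, adjusted p = 0.00508, higher in 6 of 6 mice), lost on leaving out mouse 5 and without the block by mouse, with adjusted p from 1.96e-07 to 0.549. Got1, the cytosolic aspartate aminotransferase, rose as well (90.2 ± 9.68 CPM with T3, 76.4 ± 9.07 CPM without T3, log2 difference 0.24, adjusted p = 0.0109), a call lost without mouse 3 and without the block by mouse, with adjusted p up to 0.277. Glul, which makes glutamine, had a log2 difference of 0.07 (adjusted p = 0.557).

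Among p53 and its targets, 20 tested, 2 rose and 0 fell, with a median log2 difference of 0.11 and 18 above 0. Eda2r, a receptor of the tumour necrosis factor family, had 42.6 ± 9.02 CPM with T3 and 34.4 ± 3.95 CPM without T3 (log2 difference 0.29, adjusted p = 0.0294, higher in 5 of 6 mice). Phlda3, a repressor of Akt, had 30.1 ± 3.80 CPM with T3 and 24.2 ± 4.82 CPM without T3 (log2 difference 0.32, adjusted p = 0.0350, higher in 6 of 6 mice). Neither call held with DESeq2 or without the block by mouse: leaving out mouse 1, 2, 3 or 4 also ended that of Eda2r (adjusted p up to 0.368 over the alternatives), and leaving out mouse 3, 4, 5 or 6 that of Phlda3 (up to 0.299). Classical targets lay near 0, with log2 differences of 0.01 for Cdkn1a (adjusted p = 0.938) and 0.09 for Mdm2 (adjusted p = 0.503), and Trp53 itself was at 0.06 (adjusted p = 0.734).

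Of 10 other guanylate-binding protein genes, 2 were listed and tested, Gbp7 and Gbp2, both near Gbp3 on chromosome 3. Gbp7, 9.88 kb from Gbp3, had 4.25, 8.23 and 20.7 CPM with T3 and 2.95, 5.32 and 12.7 CPM without T3 (lowest, median, highest), so its groups overlapped and mouse 1 was highest in both, as for Gbp3. Its log2 difference was 0.50 (SE 0.13, 95% interval 0.23 to 0.78, adjusted p = 0.0261, higher in 6 of 6 mice). The call was lost on leaving out mouse 1, 2 or 3, with DESeq2 and without the block by mouse, and the adjusted p ran from 0.0139 to 0.779 over the alternatives. Gbp2, 47.4 kb away, had 0.791 to 7.40 CPM with T3 and 0.514 to 4.58 CPM without T3, again with mouse 1 highest, and did not pass the test (log2 difference 0.40, 95% interval -0.02 to 0.81, adjusted p = 0.311). Of the stretches of 75 bases in Gbp3 transcripts, 2.06% (70 stretches) also occur in Gbp7. Of those of Gbp7, 11.3% (633 stretches) occur in Gbp3 or in Gm43802, so most of these are not shared with Gbp3. Reads from these stretches cannot be assigned to 1 gene by their sequence. Of 34 genes of interferon signalling and response, 26 were listed and 20 tested. Interferon-induced genes such as Irf7, Isg15, Ifit1 and Rsad2 were among those not tested. Of the 20, limma called 0, as did edgeR, DESeq2 and limma-voom. At an unadjusted p under 0.05 in limma 1 was lower, the median log2 difference was -0.04 and 6 lay above 0.

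The nearest tested genes on each side of the 6 genes, 2 per side and 24 in all, had log2 differences of -0.46 to 0.50. Apart from Gbp7, 2 of them passed the test, both lower with T3. Mcm5, a subunit of the replicative helicase, lies 85.5 kb from Rasd2 (log2 difference -0.38, adjusted p = 0.0356; adjusted p up to 0.165 over the alternatives, lost without mouse 3, 4 or 6, with DESeq2 and without the block by mouse). Timeless, a replication fork protein, lies 22.1 kb from Gls2 (log2 difference -0.46, adjusted p = 0.0319; up to 0.188, lost without mouse 2, 3, 4 or 5, with DESeq2 and without the block by mouse). The library kit does not mark strand, so reads where genes overlap cannot be assigned to 1 gene by strand. Spryd4, on the opposite strand, overlaps 97 bases or 2.79% of the exons of Gls2, and its log2 difference was -0.03 (adjusted p = 0.938). The antisense gene Gm42836 covers 12.5% of Bcar3 exons and is not among the genes listed. Of the 75-base stretches of Bcar3, 12.8% occur in other genes, Gm42836 among them, so these shares overlap and do not add up. The level of Bcar3 therefore carries some uncertainty. For Flywch2 and Stac2 0 such stretches were shared, and for Rasd2 and Gls2 0.226% and 0.592%.

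**Figure D5:**
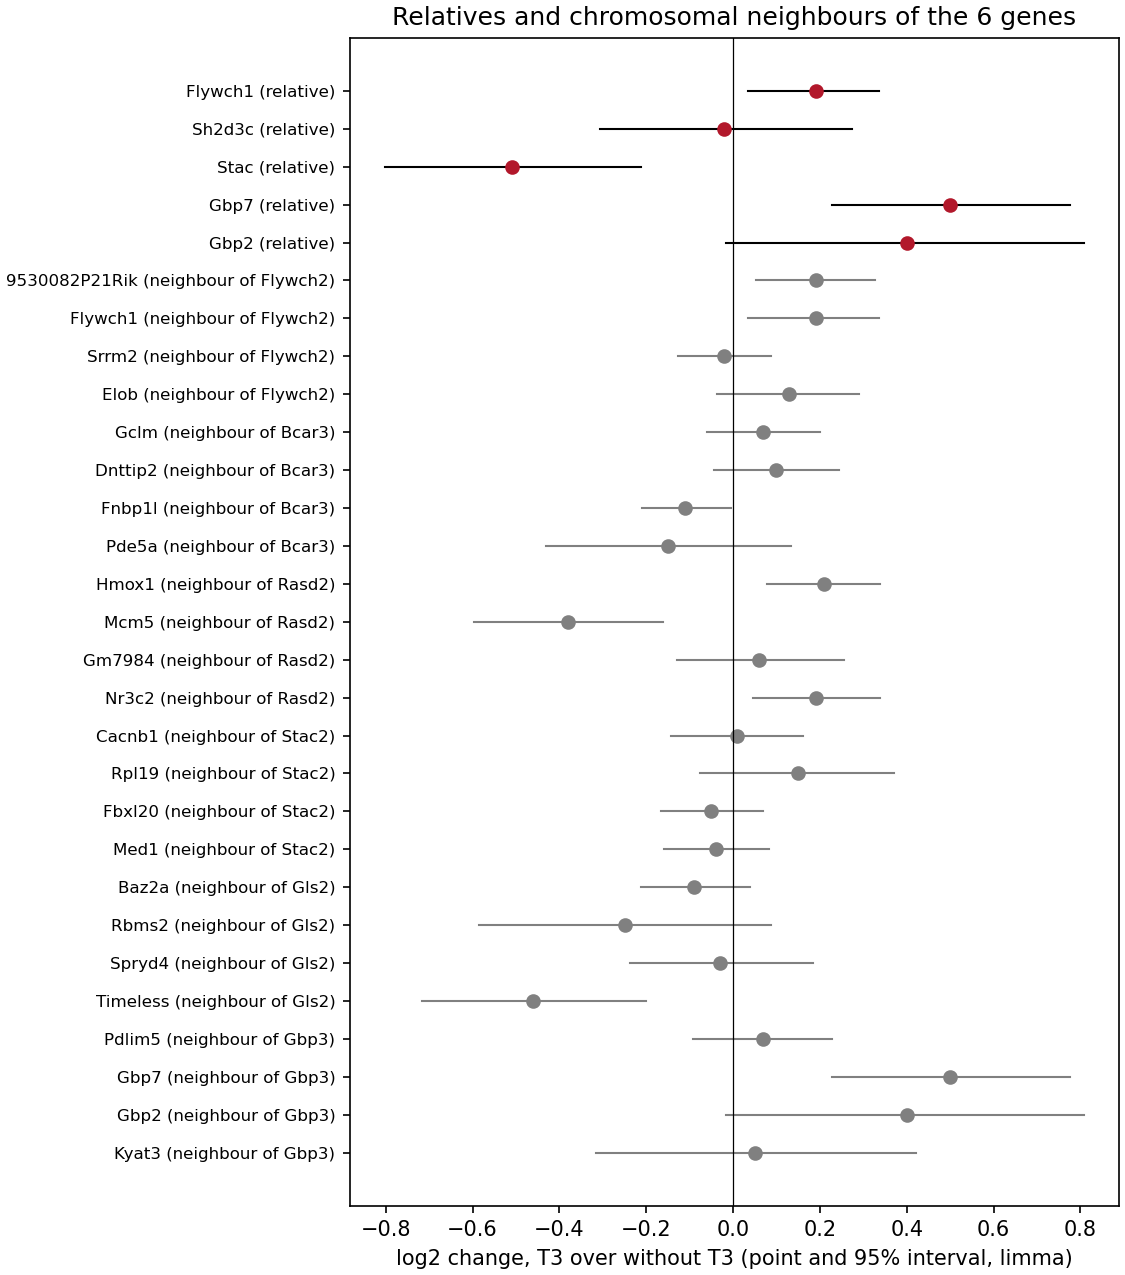
Log2 difference, T3 over without T3 (horizontal axis), with 95% limma intervals not adjusted for the number of genes, for relatives of the 6 genes (red) and the 2 nearest tested genes on each side (grey). Gbp7 lies at 0.50, Stac at -0.51, and the other genes plotted lie between -0.46 and 0.40.

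For each gene, the 3 genes whose deviations from the group means were most like its own were picked from 11544 genes of at least 5 CPM, over 12 libraries in which partner cultures share a mouse. For Bcar3 they were St18 (r = 0.98), Nr2e1 (0.96) and Tspan3 (0.96), and for Gbp3 Susd6, Wipi1 and Kdelc2 (0.98 each). Stac2 varied most like Cplx1 (0.97), a synaptic vesicle protein gene, Rexo1 (0.96) and Clstn3 (0.94), and Rasd2 like Pld2 (0.93), Cspg5 (0.91) and Tollip (0.89). Flywch2 was nearest to Rfx1, Cnpy3 and Mrpl38 (0.91 each), and Gls2 to Sh3bp5l (0.85), Pex19 (0.85) and Gm5900 (0.84). These are descriptions chosen as the highest of many values. Of the 18 genes, limma called 0 for T3, with 3 at an unadjusted p under 0.05, and edgeR, DESeq2 and limma-voom called 0 as well, beside 5.52% of all genes tested that limma called.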

How the data were processed

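RNA sequencing libraries of 12 cultures (6 mice, with and without T3) were made from 500 ng of total RNA and read as single reads of 75 bases, per the labels' protocols. The submitters' processing notes name the tools CASAVA, FastQC, Bowtie, TopHat, HTSeq and edgeR, and GRCm38 as the build, with no versions. The authors' deposited values are a signal: gene counts scaled by TMM, per the file headers, which sum to 969044 to 1044783 per library and were read as CPM. All values were whole multiples of 1 read (100.0% within 0.01 reads), which gave back the reads. The table lists genes at 1 CPM or more in at least 2 libraries.

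The members and gene lists were chosen with earlier results of these data known. Genes kept by filterByExpr of edgeR 4.0.16 (13663; 1138 removed) were fitted with limma 3.58.1 in R 4.3.3 on log2(CPM + 0.5), with trended and robust variances and the mouse as a block. Tests were two-sided, with Benjamini-Hochberg adjustment and a threshold of 0.05, and every adjusted p of a gene comes from this fit unless another tool is named. The fit was tested on simulated data. That partner cultures share a fetus comes from the series' design. Deviations of partner libraries correlated at 0.237 to 0.638, each best with its partner, against a median of -0.106 between mice. Libraries of a group differed by more than sampling noise (chi-square per degree of freedom 2.41 to 18.1). Partner levels were compared by exact permutation. Alternatives were pseudocounts of 0.1 and 1, no filter, RLE scaling, edgeR, DESeq2 1.42.0 and limma-voom on the recovered reads, no block, and leaving out each mouse.

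Named genes are the 6 members, their closest relatives, every gene of a list that passed the threshold, the 2 nearest tested genes on each side, the 3 most alike in variation and those nearest the ratio of 1.8. Bcar1, Cacna1c, Cacna1d, Glul, Cdkn1a, Mdm2 and Trp53 were added after their values were seen. Some genes that this rule names are not reported here. Symbols were found for 14648 of 14801 identifiers.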

Additional observations from a re-analysis of the deposited data

Results flagged for a closer look

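Among 38 sets of 6 values examined (levels and ratios of the 6 genes and summed marker levels), 5 held 1 sample far from the others by Dixon's criterion, which chance alone meets in about 1 in 20 sets. The ratio of Gls2 in mouse 6, 4.26, was far above the other mice, with a gap of 0.625 of the range. The Gbp3 level with T3 in mouse 1, 20.0 CPM, stood apart with a gap of 0.713 of the range. Endothelial markers summed to 38.2 CPM in mouse 1 with T3, the highest of that group. In the library of mouse 4 without T3, mural and meningeal markers summed to 471 CPM and heart muscle markers to 1213 CPM. The part of these in the results was not tested.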

How the results depend on the processing

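The choice by ratio largely fixed the direction of change, and the log2 difference of each of the 6 genes kept that direction under each alternative. Over the other pseudocounts, filter, scaling and tools it ran from 1.45 to 1.65 for Flywch2, 1.23 to 1.43 for Bcar3, 1.23 to 1.35 for Rasd2, 1.02 to 1.10 for Stac2, 1.11 to 1.34 for Gls2 and 0.85 to 0.99 for Gbp3. Leaving out 1 mouse gave 1.43 to 1.66, 1.17 to 1.49, 1.13 to 1.42, 0.97 to 1.13, 1.09 to 1.28 and 0.87 to 0.98 for the genes in the same order. Division by the astrocyte marker sum, chosen after seeing the data, lowered the log2 difference of all 6 genes by similar amounts. It gave 1.28 for Flywch2, 1.08 for Bcar3, 1.03 for Rasd2, 0.77 for Stac2, 0.96 for Gls2 and 0.66 for Gbp3. Only for Gbp3 was the shift beyond the SD between mice, which at 0.21 was the smallest of the 6. The part of astrocytes in these shifts was not tested.

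Over all genes, the fit with no replicate block called 125 higher and 53 lower, 178 in all, against 461 and 293, 754 in all, with the mouse as a block. Leaving out 1 mouse gave 304 to 530 higher, 154 to 330 lower and 458 to 860 in all, with the fewest without mouse 3, and 191 lower without mouse 5. DESeq2 called 312 higher and 219 lower. Fewer samples enter the fits without a mouse; other causes were not tested.

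With no replicate block the lists held 0 called genes around Bcar3, 0 around Rasd2, 2 around Stac2, 0 in glutamine metabolism, 0 among p53 targets and 0 among guanylate-binding proteins, against 1, 1, 4, 2, 2 and 1 with the block. DESeq2 called 0 around Rasd2, 0 among p53 targets and 0 among guanylate-binding proteins. Leaving out 1 mouse gave 0 to 1, 0 to 2, 1 to 4, 1 to 3, 0 to 1 and 0 to 1 in the same order as above. The log2 difference of Sh2d3c, -0.02, turned to 0.10 without mouse 1 and 0.07 without mouse 2 and ran from -0.13 to 0.10 on leaving out 1 mouse, never past the threshold. The partner correlation of Gbp3 was 0.94 with a pseudocount of 0.1, where its adjusted exact permutation p was 0.05. On leaving out 1 mouse the correlation was 0.89 to 0.98. Its adjusted p was then 0.100 without mouse 3 or 6 and 0.200 without mouse 1, 2, 4 or 5. With 5 mice, 0.100 is the lowest value for a gene that alone reaches the smallest possible p. Depth limits Gls2 and Bcar3 most, with as few as 15 and 9 reads without T3.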
